A study of Homo sapiens with 6 samples.

Results

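The 9 genes described here encode receptors of the transforming growth factor beta (TGF-beta) superfamily, and they were picked by name. They comprised 6 type I receptors (ACVR1, ACVR1B, ACVRL1, TGFBR1, BMPR1A and BMPR1B), 2 type II receptors (TGFBR2 and BMPR2) and 1 type III receptor (TGFBR3). Each of the 9 was represented among the 927 named genes of the table, by 12 of its 1259 probe sets, and a probe set is a group of array probes that report on the same transcript. Probe sets were assigned to a receptor through the RefSeq accession in their identifier. The arrays compared 2 populations of the established human colon cancer cell line RKO. The first is designated RKO C2 (C2 below) and described as clonal. The second, RKO C2 F3 (F3 below), was taken from C2 by cell sorting for low u-PAR, the urokinase receptor, so both share the RKO background and F3 also carries the history of that sort. The study set out to find which glycosylation enzyme F3 lacks. The labels name no agent for either population, each was measured on 3 arrays, and the labels call F3 a clonal population in one place and a population in another. Whether the replicates were grown separately is not in the labels, so the p-values cover the spread among these arrays, part or all of which may be technical.

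Signalling in this family starts when a dimeric ligand brings type II and type I receptors together at the membrane. The type II receptor, a serine/threonine kinase that is active without ligand, phosphorylates the type I kinase, which in turn phosphorylates Smad proteins that enter the nucleus. TGF-beta and activin type I receptors act on Smads other than those of the bone morphogenetic protein (BMP) type I receptors, and type III receptors have no kinase and present ligand to the others. In the colon epithelium TGF-beta restrains growth, and colon cancers with unstable microsatellites, the class to which RKO belongs, are known for frameshift mutations in a run of adenines in the coding sequence of TGFBR2. A probe set measures transcript and does not show whether the receptor protein is made or works.

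No receptor probe set passed the threshold in either direction. In limma, a linear model with variances moderated over all probe sets, 0 of 12 had an adjusted p under 0.05, where 0.0794% of all 1259 probe sets did (1 probe set). The smallest limma adjusted p among the receptors was 0.97. At an unadjusted limma p under 0.05 the receptors again counted 0 of 12, against 5.4% of all probe sets. With 1 probe set per gene, the mean was lower in F3 for 8 of the 9 receptors, against 57.3% of named genes. Among these 8, BMPR1A was higher in F3 after repeated quantile normalization. ACVR1B was counted by its brightest probe set, and its other probe sets had higher means in F3. Counted by probe set, 8 of the 12 were lower in F3, against 54.6% of all 1259. The median change over the 12 probe sets was -0.082 on the log2 scale (F3 minus C2), beside -0.0064 over all probe sets, and the median absolute change was 0.087 beside 0.047. These counts describe receptors chosen with earlier results of the data known and carry no test. In such bulk samples fewer cells with a transcript and less transcript per cell cannot be told apart.

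**Figure D1:**
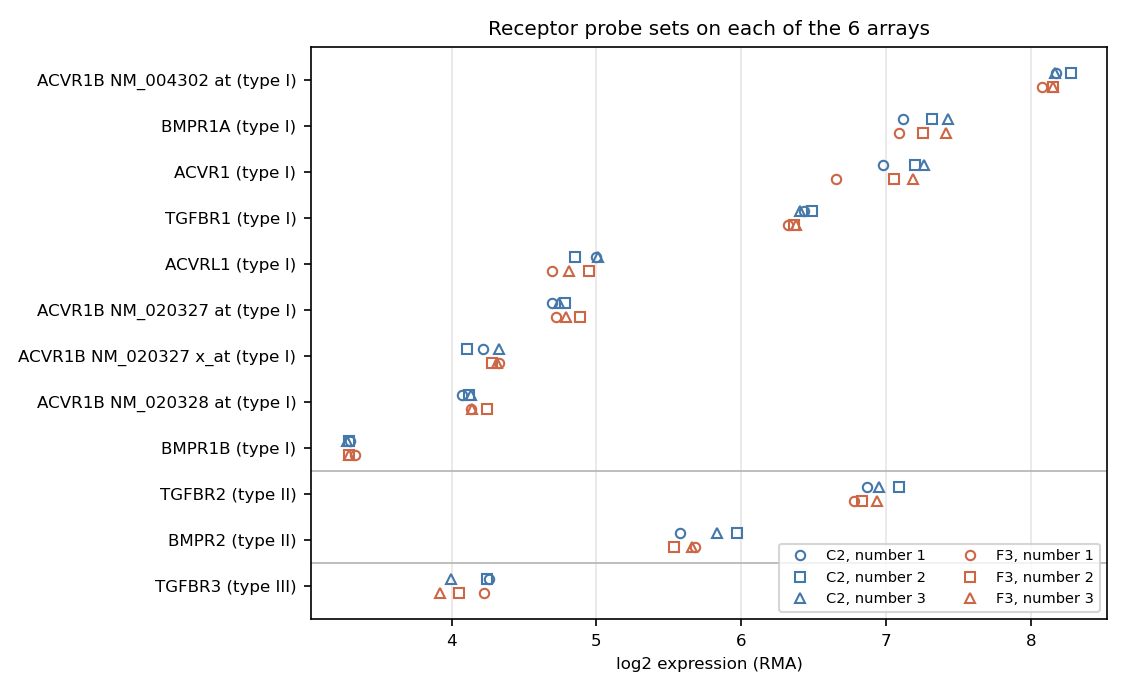
Log2 expression (horizontal axis) of each of the 12 receptor probe sets on every array; blue symbols are C2, orange symbols F3, and circles, squares and triangles are the arrays numbered 1, 2 and 3. The populations overlap for 10 of the 12 probe sets, and the 4 ACVR1B probe sets lie between 4.14 and 8.17 on average.

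Among the type I receptors, ACVR1B, which binds activin, had the brightest probe set. Its log2 expression was 8.17, 8.28 and 8.17 on C2 arrays 1, 2 and 3 and 8.08, 8.15 and 8.15 on F3 arrays 1, 2 and 3. All 3 F3 values lay below all 3 C2 values, by a small margin. The log2 change was -0.079 (SE 0.056, 95% interval -0.21 to 0.049, n = 3 each, limma adjusted p = 0.97), and -0.044 without C2 replicate 2. TGFBR1, the type I receptor for TGF-beta itself, had log2 values of 6.43, 6.49 and 6.40 in C2 and 6.32, 6.36 and 6.38 in F3. Here too the populations did not overlap, and the change was -0.086 (SE 0.052, 95% interval -0.20 to 0.032, limma adjusted p = 0.97). In all, 2 of the 12 receptor probe sets were without overlap, against 10.3% of all probe sets.

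ACVR1, a BMP receptor also known as ALK2, had the largest change of the 12. Its log2 values were 6.98, 7.20 and 7.26 in C2 and 6.65, 7.05 and 7.19 in F3. The array numbered 1 was the lowest in both populations and the array numbered 3 the highest, and the populations overlapped. The means were 7.15 ± 0.15 (SD, n = 3) in C2 and 6.97 ± 0.28 (SD, n = 3) in F3, a change of -0.18 (SE 0.13, 95% interval -0.49 to 0.13, limma adjusted p = 0.97), which is 1.13-fold lower. Within same-numbered pairs the differences were -0.32, -0.15 and -0.074. The size depended on single arrays: the change was -0.027 without F3 replicate 1 and -0.29 without F3 replicate 3. Blocking on the replicate number, the SE fell to 0.063 and the 95% interval ran from -0.33 to -0.031, and the limma adjusted p was 0.52. In that fit 0 of the 12 receptor probe sets passed, against 0.159% of all probe sets, and 1 of the 12, ACVR1, was under 0.05 before adjustment, against 8.02% of all probe sets.

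BMPR1A, the broadly expressed BMP type I receptor, had log2 values of 7.11, 7.32 and 7.43 in C2 and 7.09, 7.25 and 7.42 in F3. The spread between numbers was far wider than that between populations, with pair differences of -0.026, -0.064 and -0.012. The change was -0.034 (SE 0.10, 95% interval -0.27 to 0.20), and the block brought the SE to 0.048. It turned positive after repeated quantile normalization (0.033), without C2 replicate 3 (0.037) and without F3 replicate 1 (0.048). BMPR1B, the BMP type I receptor best known from cartilage, was the dimmest receptor, at 3.30, 3.30 and 3.28 in C2 and 3.33, 3.30 and 3.30 in F3. On 3 of the 6 arrays the deposited value was identical to the last digit, and 2 of the 1259 probe sets had 3 or more equal values. Its change was 0.017 (95% interval -0.093 to 0.13). ACVRL1, a type I receptor known from endothelium and also called ALK1, had log2 values of 4.99, 4.85 and 5.01 in C2 and 4.69, 4.95 and 4.81 in F3. It was lower in F3 in the pairs numbered 1 and 3 (-0.30 and -0.20) and higher in the pair numbered 2 (0.099), and its change was -0.13 (SE 0.078, 95% interval -0.31 to 0.045), or -0.071 without F3 replicate 1 and -0.20 without F3 replicate 2.

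**Figure D2:**
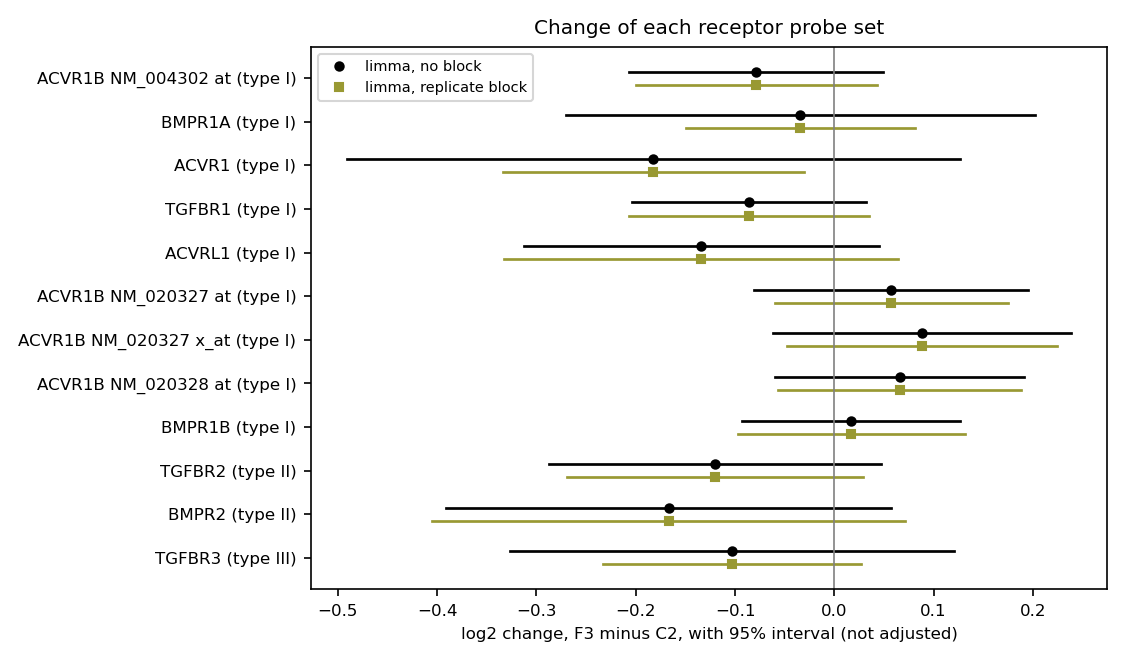
Log2 change (F3 minus C2, horizontal axis) of each receptor probe set with its 95% interval, from limma without a block (black circles) and with the replicate number as a block (olive squares). Without the block every interval spans 0, and with it that of ACVR1 does not (-0.33 to -0.031), while its adjusted p was 0.52.

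ACVR1B was the only receptor with several probe sets. The sign of the change differed between them, and none passed the threshold. The bright set is built on accession NM_004302. The other 3 are built on NM_020327 (2 sets) and NM_020328, records of other transcripts of the gene, and their mean log2 levels were 4.77, 4.26 and 4.14. Their changes were positive, at 0.057, 0.088 and 0.066, with 95% intervals of -0.081 to 0.20, -0.062 to 0.24 and -0.060 to 0.19. The bright set minus the first NM_020327 set gave 3.48, 3.49 and 3.43 in C2 and 3.36, 3.27 and 3.36 in F3, without overlap. Against the NM_020328 set the difference was 4.10, 4.16 and 4.04 in C2 and 3.94, 3.91 and 4.01 in F3, again without overlap. The exact two-sided permutation test gave p = 0.10 for each of these, the smallest p that 3 arrays against 3 allow, and 0.20 for the other NM_020327 set, whose suffix _x_at marks probes that can bind other transcripts. Adjusted over these 3 tests the values were 0.15, 0.15 and 0.20. These tests were chosen after the values were seen and leave the pairing out, and they do not show that the sets differ in their change. Whether the 3 dim sets report a transcript of ACVR1B or background was not tested, since no detection call comes with the values. The same limit holds for BMPR1B, TGFBR3 and ACVRL1, whose mean log2 levels over the 6 arrays were 3.30, 4.12 and 4.88.

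Both type II receptors had lower means in F3. TGFBR2, the receptor that binds TGF-beta first, had log2 values of 6.87, 7.09 and 6.95 in C2 and 6.78, 6.83 and 6.94 in F3. It was lower in F3 in every same-numbered pair (-0.090, -0.26 and -0.014), but the highest F3 array lay above the lowest C2 array. The means were 6.97 ± 0.11 (SD, n = 3) and 6.85 ± 0.083 (SD, n = 3), a change of -0.12 (SE 0.073, 95% interval -0.29 to 0.047, limma adjusted p = 0.97). Without C2 replicate 2 the change was -0.060. On a linear scale the interval with all arrays and no block allows an F3 level from 0.82 to 1.03 times that of C2. With the replicate block the log2 interval ran from -0.27 to 0.029, and the limma adjusted p was 0.72. BMPR2, the BMP type II receptor, had log2 values of 5.58, 5.97 and 5.83 in C2 and 5.68, 5.54 and 5.66 in F3. The pairs did not run one way, with 0.10 for number 1, -0.43 for number 2 and -0.17 for number 3. The change of -0.17 (SE 0.098, 95% interval -0.39 to 0.057, limma adjusted p = 0.97) rested most on the array pair numbered 2, without which it was -0.034. It was -0.079 without C2 replicate 2 alone and -0.28 without C2 replicate 1.

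The type III receptor TGFBR3, or betaglycan, is a proteoglycan that carries heparan and chondroitin sulfate chains and presents TGF-beta to TGFBR2. Its log2 values were 4.26, 4.25 and 3.997 in C2 and 4.22, 4.05 and 3.92 in F3. It was lower in F3 in each pair, with differences of -0.037, -0.19 and -0.079, and the populations overlapped. The change was -0.10 (SE 0.097, 95% interval -0.33 to 0.12), and with the block the SE was 0.054 with an adjusted p of 0.72 in limma. The change was -0.029 without F3 replicate 3, and -0.19 without C2 replicate 3.

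Set side by side by type, mean log2 levels in C2 ran from 3.29 to 8.21 over the 9 type I probe sets, were 5.79 and 6.97 for BMPR2 and TGFBR2, and were 4.17 for TGFBR3. Type I therefore held both the brightest and the dimmest receptor probe set, and the type II and type III values fell inside its range. No order of transcript abundance can be read from this, since probe sets bind with different strength and the values are not per transcript length. The 4 ACVR1B probe sets alone spanned 4.03 log2 units, against 1.20 between the 2 type II receptors. In F3 the corresponding values were 3.31 to 8.13, 5.63, 6.85 and 4.06. By type, the changes were between -0.18 and 0.088 for type I, -0.17 and -0.12 for type II, and -0.10 for type III, and a difference between types was not tested.

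**Figure D3:**
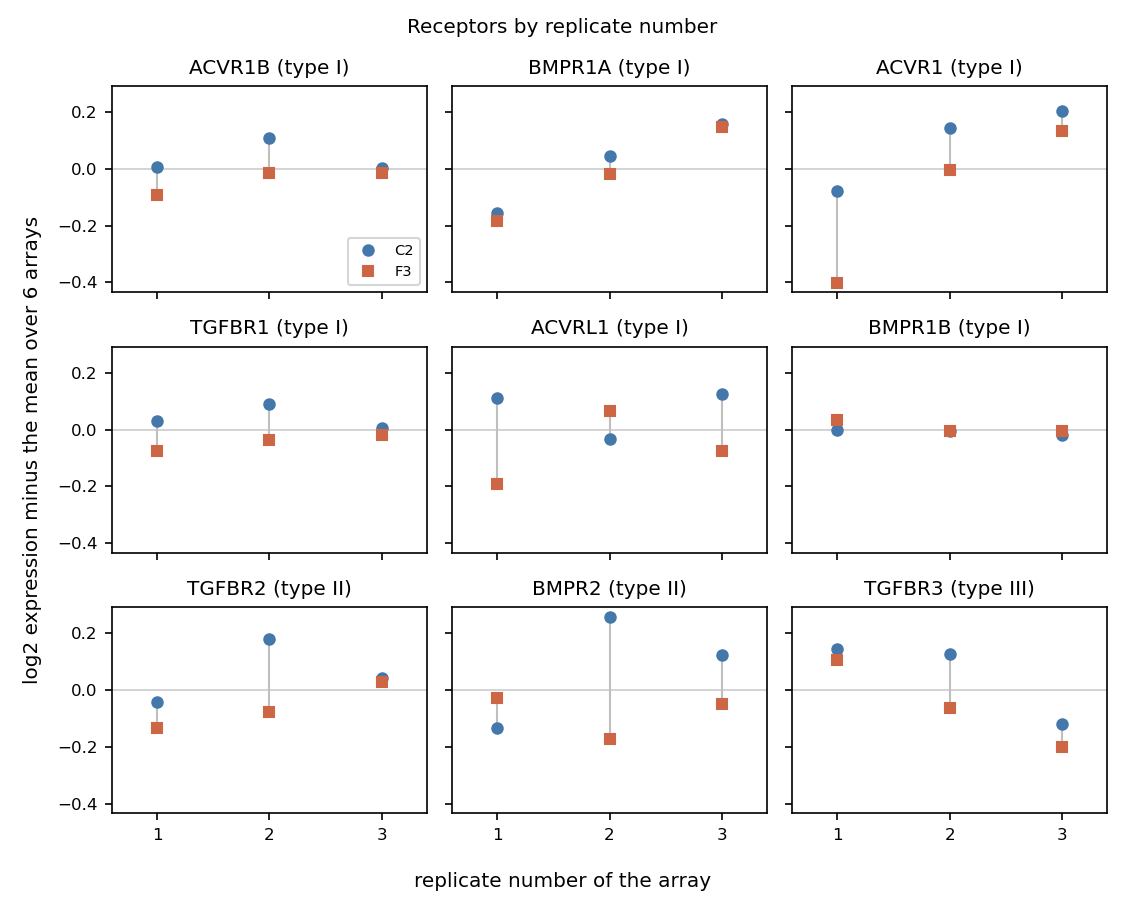
Log2 expression minus the mean over the 6 arrays (vertical axis) by the replicate number of the array (horizontal axis), for the brightest probe set of each receptor; blue circles are C2, orange squares F3, and grey lines join same-numbered arrays. ACVR1 and BMPR1A are lowest on the arrays numbered 1 in both populations, and BMPR1B hardly varies.

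For some receptors, not all, arrays of the same number deviated the same way. ACVR1 deviated from its mean over 6 arrays by -0.078 in C2 and -0.40 in F3 on the arrays numbered 1, and by 0.21 and 0.13 on those numbered 3. BMPR1A deviated by -0.16 and -0.18 on the arrays numbered 1 and by 0.16 and 0.15 on those numbered 3. TGFBR3 ran the other way, with 0.14 and 0.11 on number 1 and -0.12 and -0.20 on number 3. The arrays numbered 2 lay on opposite sides of the mean over 6 arrays for BMPR2 (0.26 in C2 and -0.17 in F3) and TGFBR2 (0.18 and -0.077). They did so for TGFBR1 too (0.092 and -0.035), but deviations from the mean over 6 arrays include the difference between populations. For TGFBR1 every C2 array lay above that mean and every F3 array below it. Array number 2 was above the population mean in both, at 6.491 against 6.442 in C2 and 6.364 against 6.356 in F3. Over the 12 receptor probe sets, deviations from the population means correlated between same-numbered arrays with r = 0.49, -0.48 and 0.73 for numbers 1, 2 and 3. The spread within a population (SD) was 0.22 for ACVR1, at the 98.7th percentile of all probe sets, and 0.16 for BMPR1A, at the 92.6th. It was 0.018 for BMPR1B, at the 1.27th percentile, and 0.038 for TGFBR1, at the 9.37th, beside a median of 0.083 over all probe sets. With 1 probe set per gene, values were lower in F3 in all 3 pairs for 6 of the 9 receptors, against 19.6% of named genes. These were ACVR1, ACVR1B (its brightest set), BMPR1A, TGFBR1, TGFBR2 and TGFBR3. Several of these differences were small beside the spread, such as -0.012 for BMPR1A and -0.014 for TGFBR2 in the pair numbered 3. Counted by probe set, 6 of the 12 were lower in all 3 pairs and 2, both of ACVR1B, were higher. Over all 1259 probe sets these counts were 224 and 152.

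Some receptors followed each other over the arrays. Only the brightest probe set of each gene was used, so the other ACVR1B sets, whose means were higher in F3, were left out. The Pearson correlation over the 6 arrays was 0.96 for ACVR1B with TGFBR1 and 0.91 for ACVR1B with TGFBR2. It was 0.87 for TGFBR1 with TGFBR2 and 0.89 for ACVR1 with BMPR1A. The lowest values were -0.94 for ACVR1 with BMPR1B, -0.81 for ACVRL1 with BMPR1B and -0.78 for BMPR1A with TGFBR3; BMPR1B varied by only 0.055 over the arrays. These are descriptions over arrays that share a normalization, fall in pairs and so are not independent. High values were common in the table: of 926 other named genes, 30 had a correlation over 0.9 with TGFBR2 and 31 with ACVR1. The genes nearest to TGFBR2 were PSMB2, a proteasome subunit (0.98), OGA, the enzyme that removes O-GlcNAc (0.97), and CHST15, a chondroitin sulfotransferase (0.97). Those nearest to ACVR1 were the growth factor gene VEGFA (0.98), COG5, a subunit of a Golgi tethering complex (0.96), and PIGH, a subunit of the first enzyme of GPI anchor synthesis (0.96).

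The brightest ACVR1B probe set and TGFBR2 followed each other closely over the arrays, and that correlation includes the lower means of both in F3. BMPR1A values followed the array number. For these 3 receptors the sequence before the start of transcription is shown. Each is the 250 bases before the most upstream start site that RefSeq lists on GRCh38.p14, 5′ to 3′ on the gene's own strand, at chr12:51951449-51951698 for ACVR1B, chr3:30606106-30606355 for TGFBR2 and chr10:86755513-86755762 for BMPR1A, all on the plus strand. Capitals mark a GC box (GGGCGG or its reverse complement CCGCCC, bound by Sp1) or a TATA box (TATAAA or its reverse complement TTTATA).
ACVR1B: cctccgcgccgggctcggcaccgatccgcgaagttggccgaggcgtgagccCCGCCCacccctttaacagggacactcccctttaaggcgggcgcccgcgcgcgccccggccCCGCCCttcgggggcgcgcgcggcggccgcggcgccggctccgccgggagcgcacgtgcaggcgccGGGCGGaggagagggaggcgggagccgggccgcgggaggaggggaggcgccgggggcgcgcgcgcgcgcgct
TGFBR2: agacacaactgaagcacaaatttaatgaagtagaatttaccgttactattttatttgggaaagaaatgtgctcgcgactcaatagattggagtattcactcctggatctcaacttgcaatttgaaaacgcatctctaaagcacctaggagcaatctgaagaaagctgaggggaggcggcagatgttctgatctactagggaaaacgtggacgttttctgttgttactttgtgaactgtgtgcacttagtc
BMPR1A: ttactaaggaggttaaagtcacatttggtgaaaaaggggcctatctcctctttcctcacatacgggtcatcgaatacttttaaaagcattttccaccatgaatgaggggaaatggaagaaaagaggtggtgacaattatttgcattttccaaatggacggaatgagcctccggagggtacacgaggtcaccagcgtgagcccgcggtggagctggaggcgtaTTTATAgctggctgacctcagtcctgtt
The ACVR1B stretch held 3 GC boxes and 48 CpG dinucleotides, with a GC content of 82.8%. The TGFBR2 stretch held no GC box and 7 CpG, with a GC content of 40.8%. This pair, alike over the arrays by the brightest ACVR1B set, thus differed in base composition here. The BMPR1A stretch held 9 CpG and the only TATA box match, on the reverse strand, among the 21 windows listed for 8 of the receptors. Over these 21 windows, which overlap where start sites lie close, 10 held a GC box. TGFBR2 had 2 windows, of which 1 held a GC box, and TGFBR1 had 8, of which 4 did. Of the 35116 windows in the table, 42.6% held a GC box and 10.7% a TATA box, and the median was 11 CpG. A match is a run of letters and says nothing of whether a factor binds there, and the arrays do not show which start site was used. ACVR1B and ACVRL1 lie next to each other on chromosome 12 with no other gene of the RefSeq table between them, and their changes were -0.079 and -0.13.

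Other genes of the pathway were taken from lists chosen with earlier results known, and none of them passed the threshold in limma over all probe sets. Of 13 other receptors and co-receptors, 3 were measured. ACVR2B, an activin type II receptor, had log2 values of 6.69, 7.04 and 6.84 in C2 and 6.70, 6.82 and 6.67 in F3, a change of -0.13 (SE 0.091, limma adjusted p = 0.97). Its close relative ACVR2A was at -0.015, a sign that turned with median centring (0.00077) and array weights (0.0059), and AMHR2, the receptor of anti-Müllerian hormone, was at 0.036. All 3 overlapped between the populations.

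Of 33 ligand genes 21 were measured, 0 rose and 0 fell, with 15 positive changes, 6 negative ones and a median of 0.050. GDF15, a distant member that signals through another receptor, had the smallest p, with log2 values of 8.12, 7.86 and 7.96 in C2 and 8.19, 8.59 and 8.22 in F3 and a limma adjusted p of 0.84. BMP8A went from 4.90 to 5.05 and BMP10, a ligand of ACVRL1, from 4.79 to 4.95, each with a limma adjusted p of 0.84. GDF2, another ligand of ACVRL1, had a change of 0.026. The populations did not overlap for 5 of the 21 ligands. With 1 probe set per gene this held for 101 of the 927 named genes, and for 10.3% of all probe sets. In F3, GDF15, BMP8A and BMP10 lay above C2, and TGFB3 and MSTN (change -0.12) lay below it. MSTN was dim, at 2.53 in C2 and 2.41 in F3, and its other probe set had a change of -0.0063. The ligands of TGFBR2 did not run one way; they, GDF2 and MSTN were singled out after their values were seen. TGFB1 was at 9.23, 8.85 and 8.99 in C2 and 9.35, 9.09 and 9.21 in F3 (change 0.19; higher in F3 in each pair, by 0.11, 0.24 and 0.22). TGFB3 had a change of -0.21, largest in the pair numbered 2 (-0.48), and the dim TGFB2, at 2.94 in C2, had one of 0.051. Their limma adjusted p-values were 0.97 for TGFB1, 0.97 for TGFB3 and 0.998 for TGFB2.

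Among inhibitors and latent carriers, 5 of 20 genes were measured, 4 with a positive change, and the median was 0.036. BGN, a small proteoglycan that binds TGF-beta, went from 6.99 ± 0.068 to 7.11 ± 0.048 (SD, n = 3 each; limma adjusted p = 0.97). NOG, which holds BMPs away from their receptors, was at 0.047, and the activin antagonist FST at 0.036, with its other 2 probe sets at 0.089 and 0.047. Of 14 Smad and adaptor genes none was among the named genes, so signalling below the receptors was not analysed here. Of 19 genes listed as targets of TGF-beta or BMP, 4 were measured, 3 of them with a positive change, and none passed. HAS2, a hyaluronan synthase, had log2 values of 4.52, 4.51 and 4.62 in C2 and 5.41, 4.72 and 5.44 in F3, without overlap (change 0.64, SE 0.17, limma adjusted p = 0.73). F3 replicate 2 stood apart from the other F3 arrays for this gene, and without it the change was 0.88 with a limma adjusted p of 0.0038. Leaving out the array that stands apart narrows the spread of F3 by construction. With any other single array left out, the change was 0.51 to 0.67 and the limma adjusted p 0.70 to 0.89. JAG1 and HES1, which belong to the Notch pathway as well, had changes of 0.35 and 0.28 with limma adjusted p-values of 0.84 and 0.97. The pair numbered 2 gave -0.047 for JAG1, against 0.60 and 0.48 in the other pairs, and HES1 was at 0.13 without F3 replicate 1. With a small and mixed set of measured targets, the list does not measure the activity of the pathway.

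**Figure D4:**
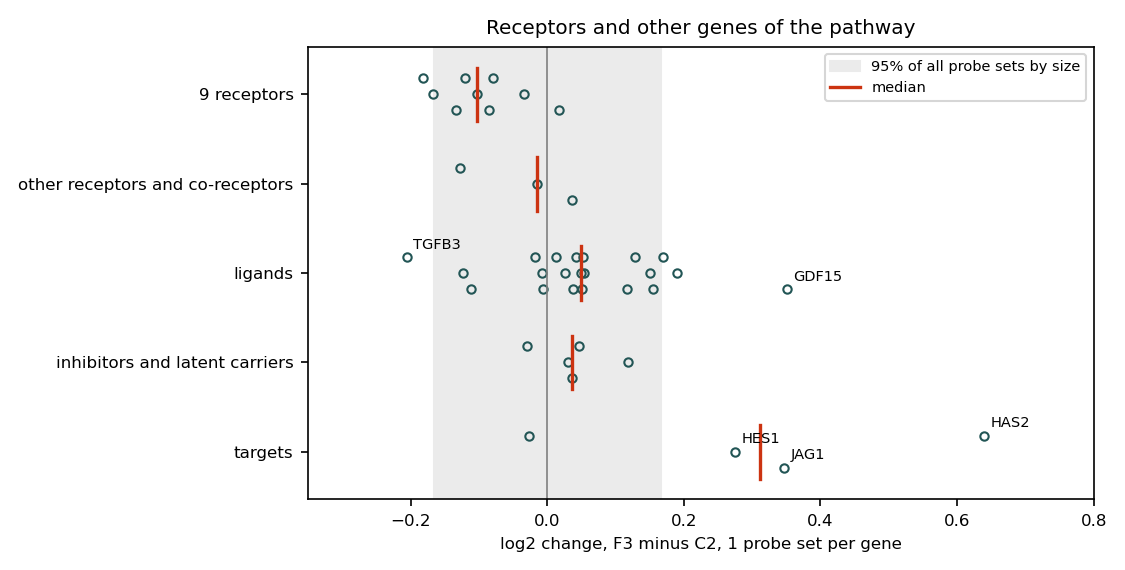
Log2 change (F3 minus C2, horizontal axis) of the 9 receptors and of the measured genes in 4 other lists of the pathway, 1 probe set per gene; red bars are medians and the grey band holds 95% of all 1259 probe sets by the size of their change (up to 0.17). The receptors have a median of -0.10 and the ligands one of 0.050, and no gene shown passed the threshold.

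The arrays were alike as a whole, with medians between 5.48 and 5.51 and correlations of 0.9981 to 0.9992 between any pair across probe sets. The colon label could not be checked, since of 10 epithelial and colon markers only MUC2 was measured (mean log2 level 5.13). Of the markers of other cells, 7 of 12 fibroblast and endothelial genes and 5 of 10 leukocyte genes were measured, with mean log2 levels of 2.30 to 5.04 and 2.49 to 4.52. The summed log2 level of the fibroblast and endothelial markers was 25.3 to 25.8 in C2 and 25.0 to 25.4 in F3, and that of the leukocyte markers 16.7 to 16.9 and 16.5 to 17.2, so both overlapped. All 7 fibroblast and endothelial markers had a lower mean in F3, against 57.3% of named genes, with changes from -0.20 to -0.0034. Of these markers 0 passed the threshold. Both populations come from the same cell line, and whether values at these levels report transcript or background was not tested. The part of these markers in the receptor changes was not tested either.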

How the data were processed

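Per the labels' protocols, Trizol was used for total RNA and cRNA was biotin-labelled for Affymetrix arrays. The authors deposited log2 values of each probe set on each array. The submitters' processing notes name RMA (background correction, quantile normalization between arrays, then a summary per probe set). For the version, the probe set design and the genome build: not given in the sources used here. This method removes shifts shared by most probe sets and shrinks changes of dim ones, and no detection call comes with the values. The number of arrays limits the precision.

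Of 1259 probe sets, 1043 matched 1 symbol in the RefSeq table of GRCh38, and the others stayed in the tests. F3 was compared with C2 (3 arrays each) in limma 3.58.1 (R 4.3.3) by lmFit and eBayes. Tests were two-sided, p-values were adjusted by Benjamini-Hochberg over the whole table, and the threshold was an adjusted p of 0.05. Intervals are at 95%. The script was tested on simulated data. For lists, the probe set of a gene with the highest mean was used.

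The receptors and lists were chosen with earlier results of these data known. Named were all receptor probe sets, up to 3 genes per list with the smallest p, and the 3 genes most correlated with TGFBR2 and with the receptor of largest change. Both populations use replicate numbers 1 to 3, and the sample titles give same-numbered arrays the same suffix, whose meaning is not stated. Over all probe sets same-numbered arrays also deviated together from their population means (r = 0.52, 0.18 and 0.26). They were therefore treated as pairs. The fit without the block stayed the main one. Alternatives were the block, 2 other scalings, a filter on dim probe sets, another variance model, array weights, arrays left out, another threshold and an ordinary two-sample test.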

Additional observations from a re-analysis of the deposited data

How the results depend on the processing

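No receptor probe set passed the threshold under any of the 16 alternatives run for that count, and the smallest limma adjusted p of a receptor was 0.52, for ACVR1 with the replicate block. The block changed no call of a receptor or list. The median receptor change stayed negative, between -0.10 and -0.040 when single arrays were left out. Of the 12 receptor probe sets, 11 kept the direction of their change in every alternative that held them. BMPR1A was at 0.033 after quantile normalization, and between -0.12 and 0.048 with single arrays left out. Over all probe sets the count past the threshold was 1, and 2 with the replicate block, 2 at an adjusted p under 0.10, 0 in the ordinary two-sample test and 0 to 2 with single arrays left out. Among targets it was 0, and 0 to 1 with single arrays left out; without both arrays of number 2 it was 1 (HAS2, change 0.86). ACVR2A was at 0.00077 with median centring, 0.0059 with array weights, 0.12 without both arrays of number 2 and -0.092 to 0.088 with single arrays left out; FST ran from -0.0036 to 0.085. The cause of these turns was not tested. BMPR1B and the _x_at set of ACVR1B were left out once each, by the filter on dim probe sets and by leaving out _x_at sets; the latter alternative was chosen after seeing the data. With 3 arrays a population, the 95% intervals of the receptor changes reached from -0.49 to 0.24 over the 12 probe sets.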
